A study of Drosophila melanogaster with 12 samples.

Results

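The Toll and Imd pathways are the main routes by which Drosophila cells switch on antimicrobial defence genes. The genes examined were Rel, Dif, dl, Tl, cact, imd, key, PGRP-LC, PGRP-LE and Myd88. They were the rows of the deposited count table that carry these symbols, and all 10 of the 10 were found among its 23882 features. In the Imd pathway, peptidoglycan from the bacterial cell wall is bound by receptors such as PGRP-LC and PGRP-LE, the signal passes through the adaptor encoded by imd and an IκB kinase complex that contains the key product, and the NF-κB protein Relish (Rel) is cleaved and enters the nucleus. In the Toll pathway, the cleaved cytokine Spätzle binds the receptor Toll (Tl), the adaptor Myd88 passes the signal on, and the inhibitor Cactus (cact) is degraded and releases the NF-κB proteins Dorsal (dl) and Dif. Hemocytes, the blood cells of the fly, use both pathways, and Toll and Dorsal also pattern the embryo.

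RNA was sequenced from Kc 167 cells, a hemocyte-like line derived from Drosophila melanogaster embryos, after transfection with double-stranded RNA (dsRNA) for 5 days. The 4 groups received dsRNA against yellow (the control), dGcn5, Elp3 or nej, with 3 replicates each, which gave 12 libraries. Every group carried a dsRNA, so no untreated cells were compared, and the labels name no microbial challenge. The labels do not say whether replicates came from separate cultures, so p-values measure the spread between these libraries, which may be technical.

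Library totals ranged from 19102102 to 23198850 counts (median 20883014). Gcn5 was at 29.1% of its yellow mean in the dGcn5 libraries. In contrast, Elp3 measured 1900 to 4126 CPM (counts relative to the TMM-scaled size of the library) in the libraries labelled Elp3 against 45.9 to 58.8 CPM in yellow libraries, and nej measured 309 to 3245 CPM in the libraries labelled nej against 46.8 to 205 CPM in yellow. Counts of the targeted gene were thus higher, not lower, in these groups, which are named below only as labelled. The excess was seen only in the matching group. Elp3 averaged 43.7 CPM in dGcn5 and 42.7 in the group labelled nej, and nej averaged 90.0 in dGcn5 and 147 in the group labelled Elp3. A count does not tell transcripts of a gene from other RNA of the same sequence. Whether RNA of the added dsRNA was counted here was not tested, so these values do not measure depletion. A check of depletion by RT-qPCR, described in the study's methods, was not analysed here. The y transcript did not set the yellow libraries apart, at 10.99 to 44.0 CPM there and a group mean of 23.1 CPM both there and in dGcn5. All 10 hemocyte markers passed the filter on low counts, including Hml and He at a mean of 164 and 96.2 RPKM, and their summed level was 229.5 to 931.4 RPKM. The summed level of 12 markers of other cell types was 3.56 to 16.5 RPKM. Of these, atilla and nos had the highest means, at 2.97 and 1.603 RPKM, Lsp1alpha was at 0 counts in 10 libraries and PPO1 in 6. The log2 level of a feature also shifted with its exon length from library to library, by -0.341 to 0.23 for each doubling of length, and values with this trend removed are given where they change a result.

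All 10 genes were detected in every library and passed the filter. Their level per kilobase of exon (RPKM) spanned a wide range, with the inhibitor and the kinase subunit at the top. The means of the receptors lay from 37.8 RPKM for PGRP-LE down to 0.299 RPKM for PGRP-LC. The mean over 12 libraries was 116 ± 41.6 RPKM (SD, n = 12) for cact, 96.8 ± 37.8 for key, 55.9 ± 11.2 for Rel and 37.8 ± 7.55 for PGRP-LE. It was 21.3 ± 5.31 RPKM for imd, 18.6 ± 2.40 for Myd88, 13.2 ± 7.31 for Dif, 8.32 ± 3.83 for Tl, 3.65 ± 2.12 for dl and 0.299 ± 0.0739 for PGRP-LC. Thus cact lay above 93.0% of the 10368 features that passed the filter over 12 libraries, and PGRP-LC above 8.31%. Most neighbours in this order were not separated by their ranges. Only dl and PGRP-LC had ranges that did not overlap, with a ratio of means of 12.2. The level of key lay above that of Rel, Rel above PGRP-LE, and PGRP-LE above imd in 12 of 12 libraries, although their ranges over libraries overlapped. By comparison, imd lay above Myd88 in 7 libraries, and cact above key, Myd88 above Dif and Dif above Tl in 8 each. Tl lay above dl in 11 libraries.

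**Figure D1:**
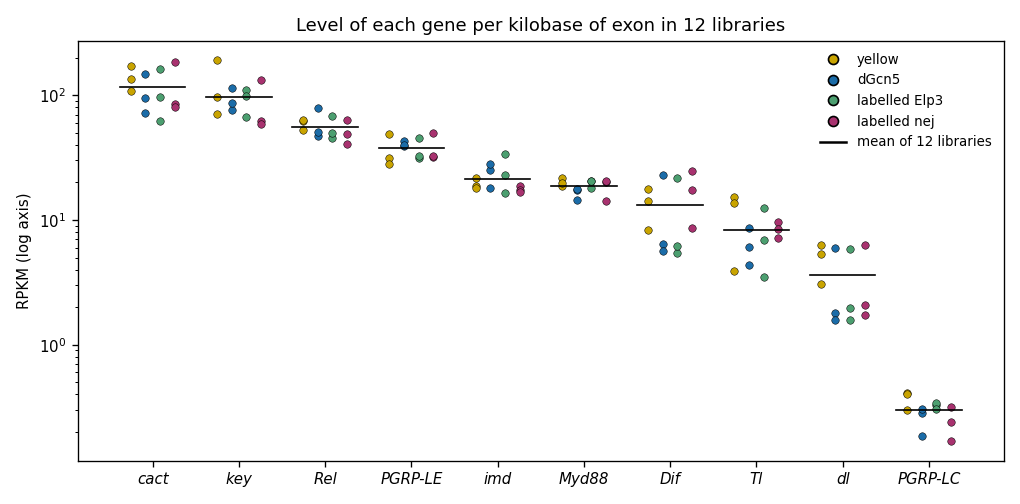
Level of each gene in RPKM on a log axis, with genes ordered by their mean over 12 libraries. Points are libraries, coloured by dsRNA group, and black lines are means. The levels run from cact, at 116 RPKM, to PGRP-LC, at 0.299 RPKM, and within dl, Dif and Tl the libraries are spread more widely than within Myd88.

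The genes also differed in how much they varied over libraries. The SD of log2 CPM over the 12 libraries was 0.875 for dl, 0.850 for Dif, 0.697 for Tl, 0.523 for cact and 0.501 for key, beside a median of 0.486 over all features that passed the filter. It was 0.358 for PGRP-LC, 0.326 for imd, 0.284 for PGRP-LE, 0.280 for Rel and 0.197 for Myd88. With the exon length trend removed, these values were 0.910 for dl, 0.818 for Dif, 0.486 for Tl and 0.260 for Myd88, with a median of 0.383 over all features. Thus Dorsal and Dif transcripts were the most variable of the 10 on either scale, and Myd88 was among the least variable.

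Of the Imd receptors, PGRP-LC, the transmembrane peptidoglycan sensor, was close to the limit of detection. PGRP-LC (FBgn0035976, chromosome 3L of BDGP6.32, 9338810 to 9348336, 3743 bp of exon) had 13 to 35 counts per library, or 0.629 to 1.54 CPM. At this depth, its differences between groups could be measured only roughly. PGRP-LE (FBgn0030695, X, 15801153 to 15803880, 2073 bp), which can sense peptidoglycan inside cells, measured 65.4, 57.9 and 101 CPM in yellow replicates 1, 2 and 3, 81.6, 89.6 and 82.7 in dGcn5, 93.7, 64.8 and 67.4 in the libraries labelled Elp3, and 66.6, 66.9 and 103 in those labelled nej. The highest libraries were replicate 3 of yellow and of the group labelled nej, and all groups overlapped.

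The Imd adaptor and the kinase subunit were measured at higher depth. The gene imd (FBgn0013983, 2R, 18409796 to 18413599, 1518 bp) measured 28.2, 27.5 and 32.9 CPM in yellow, 37.9, 43.0 and 27.2 in dGcn5, 51.0, 34.6 and 24.98 in the libraries labelled Elp3, and 28.5, 26.6 and 25.3 in those labelled nej. Thus replicates 1 and 2 of dGcn5 and of the group labelled Elp3 lay above all other libraries, and replicate 3 of these groups lay below all yellow libraries. The gene key (kenny; FBgn0041205, 2R, 24785514 to 24787411, 1421 bp) measured 137, 100.1 and 274 CPM in yellow, 107, 122 and 161 in dGcn5, 155, 94.3 and 139 in the libraries labelled Elp3, and 89.1, 83.6 and 189 in those labelled nej. Here replicate 3 was the highest library of each group except that labelled Elp3, and the groups overlapped. The exons of imd share 40 bp with GstE9 and those of key share 29 bp with CG3589, each on the opposite strand. The strand setting of the counting is not given in the sources used here, so reads in shared bases could not be assigned to either gene.

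Rel (FBgn0014018, 3R, 9044183 to 9047977, 3499 bp), the NF-κB protein of the Imd pathway, measured 217, 185 and 220 CPM in yellow, 166, 176 and 277 in dGcn5, 159, 174 and 238 in the libraries labelled Elp3, and 172, 142 and 223 in those labelled nej. Replicate 3 was the highest of each group, although in yellow it lay close to replicate 1.

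Among the Toll genes, the receptor did not vary in the way of its nuclear effectors. Tl (FBgn0262473, 3R, 26799041 to 26842403, 5198 bp) measured 79.3, 70.7 and 20.1 CPM in yellow, 31.4, 22.7 and 44.7 in dGcn5, 18.1, 36.1 and 64.4 in the libraries labelled Elp3, and 49.9, 44.4 and 37.4 in those labelled nej. Thus replicate 3 was the lowest library in yellow and the highest in dGcn5 and in the group labelled Elp3. Myd88 (FBgn0033402, 2R, 9302823 to 9308722, 3613 bp) measured 78.1, 67.1 and 71.6 CPM in yellow, 63.0, 52.7 and 63.8 in dGcn5, 74.4, 65.4 and 74.1 in the libraries labelled Elp3, and 72.9, 50.9 and 73.8 in those labelled nej. For Myd88 all dGcn5 libraries lay below all yellow libraries.

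For the inhibitor and the Toll effectors, replicate 3 was the highest library of each group, whereas the order of the other libraries differed from gene to gene. The gene cact (FBgn0000250, 2L, 16313036 to 16326207, 3324 bp) measured 448, 361 and 568 CPM in yellow, 316, 238 and 491 in dGcn5, 320.1, 206 and 535 in the libraries labelled Elp3, and 284, 266 and 611 in those labelled nej. Its exons share 62 bp with fzy on the opposite strand. The 4 highest libraries for cact were the replicates 3 of the 4 groups.

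The neighbouring genes dl and Dif lie on the same strand of 2L, 3668 bp apart. The gene dl (FBgn0260632, 17436830 to 17450364, 6432 bp) measured 34.5, 19.9 and 40.9 CPM in yellow, 11.6, 10.2 and 38.4 in dGcn5, 10.1, 12.6 and 37.99 in the libraries labelled Elp3, and 13.4, 11.1 and 40.9 in those labelled nej. All replicates 3 were at nearly the same level, between 37.99 and 40.9 CPM, whereas replicates 1 and 2 lay between 10.1 and 13.4 CPM in the groups other than yellow. Dif (FBgn0011274, 17413248 to 17433161, 5695 bp) measured 80.4, 47.0 and 99.96 CPM in yellow, 36.5, 31.9 and 130.3 in dGcn5, 31.1, 35.1 and 123 in the libraries labelled Elp3, and 48.8, 98.5 and 140 in those labelled nej. Replicate 3 was again the highest of each group, and replicate 2 of the group labelled nej came close to the yellow replicate 3. The exons of Dif share 252 bp with CG15141 on the opposite strand, which averaged 62.8 CPM.

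**Figure D2:**
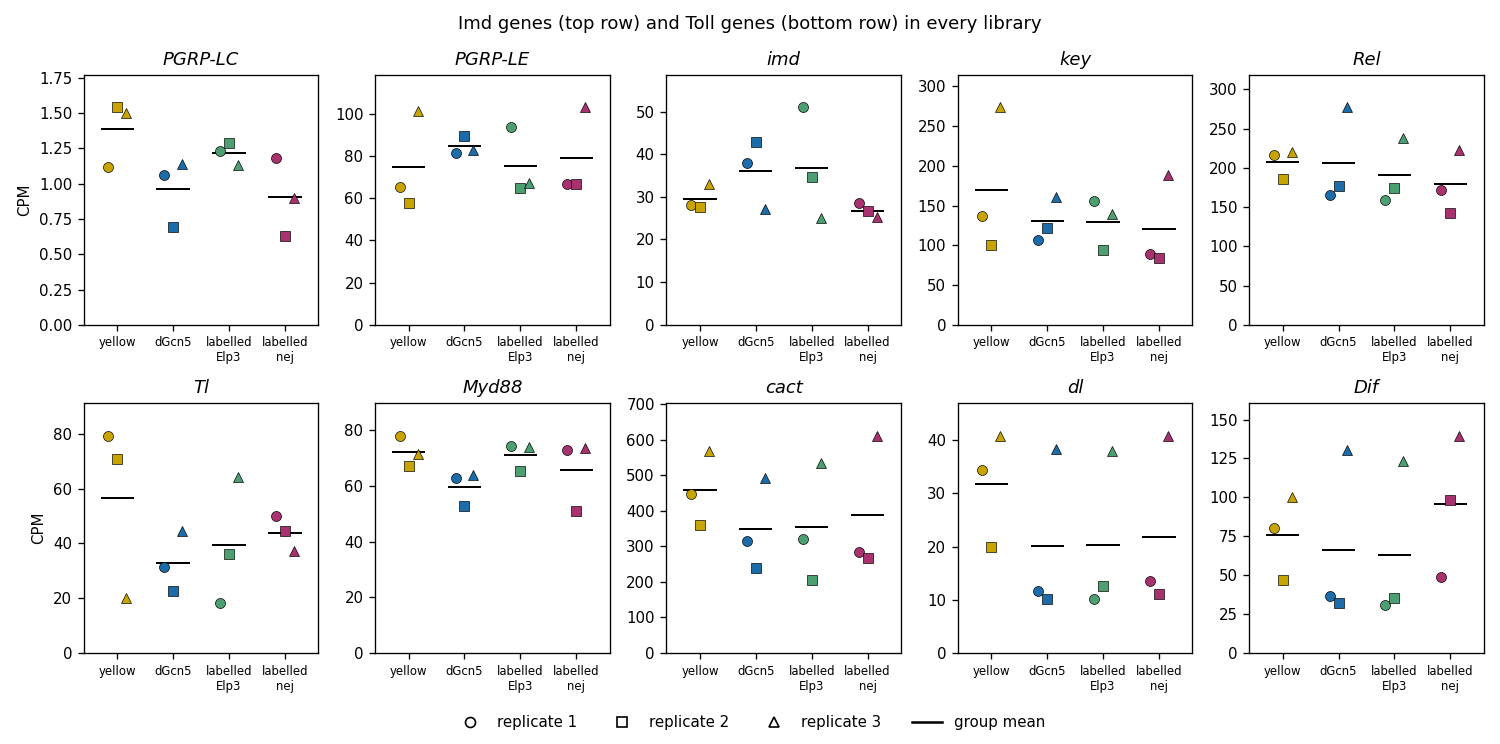
CPM of the Imd genes (top row) and the Toll genes (bottom row) in each of the 12 libraries. Circles, squares and triangles are replicates 1, 2 and 3, colours are dsRNA groups and black lines are group means. For Rel, cact, dl and Dif the triangle is the highest point of each group, and for Tl it is the lowest in yellow, at 20.1 CPM.

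To determine whether depletion of dGcn5 changed the expression of these genes, the 3 dGcn5 libraries were compared with the 3 yellow libraries. No member of either pathway passed the test with all replicates. The largest differences were in Tl and dl, which averaged 32.9 ± 11.1 and 20.1 ± 15.9 CPM (SD, n = 3) in dGcn5 against 56.7 ± 32.0 and 31.8 ± 10.8 CPM in yellow. The log2 fold change was -0.78 (SE 0.49, 95% confidence interval -1.93 to 0.36) for Tl and -0.67 (SE 0.54, -1.92 to 0.58) for dl. It was -0.53 for PGRP-LC, -0.40 for cact, -0.39 for key, -0.27 for Myd88, -0.21 for Dif, -0.01 for Rel, 0.17 for PGRP-LE and 0.29 for imd. Thus 8 of the 10 were fitted lower, with a median log2 fold change of -0.33 beside -0.03 over the 9820 features tested, 52.9% of which were fitted lower. With edgeR's quasi-likelihood test and Benjamini-Hochberg adjustment over all features, 0 of the 10 were called at an adjusted p under 0.05 and 0 had an unadjusted p under 0.05, beside 0 features called (0%) and 360 at an unadjusted p under 0.05. DESeq2 called 50 features and 0 of the 10. Myd88 was the only member whose groups did not overlap, with all dGcn5 libraries below all yellow libraries, as for 3.85% of features. None lay wholly above, beside 4.25% of features. In bulk RNA, fewer cells of a type and less RNA per cell cannot be told apart.

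The result of this comparison depended on single libraries, and above all on the replicates 3. Leaving out 1 library at a time, dl measured from -1.53 without dGcn5 replicate 3 to -0.32 without dGcn5 replicate 2, and Tl from -1.15 without yellow replicate 3 to -0.49 without yellow replicate 1, with 0 of the 10 called by edgeR in each of the 6 fits. Leaving out all replicates 3 compared replicates 1 and 2 of dGcn5 with those of yellow, and 6 of the 10 were then called. Tl fell by 1.46 on the log2 scale (95% confidence interval -1.84 to -1.07, adjusted p = 0.000673 in edgeR), dl by 1.29 (-1.89 to -0.70, adjusted p = 0.0056), Dif by 0.88 (-1.40 to -0.36, adjusted p = 0.0155) and cact by 0.53 (-0.90 to -0.15, adjusted p = 0.0309). The Imd genes imd and PGRP-LE rose by 0.55 (0.24 to 0.87, adjusted p = 0.0133) and 0.49 (0.21 to 0.77, adjusted p = 0.0132) in edgeR. Rel, at -0.21, Myd88, at -0.31, key, at -0.02, and PGRP-LC, at -0.59, did not pass. In this fit 4275 of 9841 features were called, or 43.4%, so that a call was common among all features. With the exon length trend removed as well, an alternative added after the values were seen, Tl (-1.05, adjusted p = 0.00459), PGRP-LE (0.47, adjusted p = 0.0193) and imd (0.39, adjusted p = 0.047) were called by edgeR. That made 3 of the 10 beside 29.3% of features, and dl, at -0.79, had an adjusted p of 0.0615 in edgeR. Replicates 1 and 2 differed by a chi-square of 28.3 per degree of freedom in yellow and 36.1 in dGcn5. The value was 311.7 in the group labelled Elp3 and 145.4 in that labelled nej. The part of this closeness in the number of calls was not tested.

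The replicates 3 went the other way for several of these genes. In replicate 3, Tl measured 44.7 CPM in dGcn5 and 20.1 CPM in yellow, and Dif 130.3 and 99.96 CPM. In the same order, imd measured 27.2 and 32.9 CPM and PGRP-LE 82.7 and 101 CPM. For cact and dl the replicate 3 of dGcn5 lay below that of yellow. Limma-voom with sample quality weights keeps all 6 libraries but gives less weight to those that deviate. It called the same 6 genes in the same directions, beside 4765 of 9820 features (48.5%), so that a call was again common. The hemocyte markers moved with these libraries. Their summed level was 931.4 and 800.2 RPKM in yellow replicates 1 and 2, 375.7 and 229.5 RPKM in dGcn5 replicates 1 and 2, 549.3 RPKM in yellow replicate 3 and 704.0 RPKM in dGcn5 replicate 3. In the comparison without replicates 3, where 43.4% of features were called, 7 of the 10 hemocyte markers were called lower. Their log2 fold changes ran from -2.40 for Hml and -2.16 for Col4a1 through Pxn, vkg, eater and srp to -0.75 for Ppn. The marker crq was called higher at 1.12. The part of the markers in the difference of the Toll and Imd genes was not tested. The summed markers of other cell types were 6.35 to 9.32 RPKM in yellow and 3.56 to 5.89 RPKM in dGcn5, and the neuronal gene elav was called lower, at -1.45 (adjusted p = 0.00382 in edgeR). Neither Ppn nor elav was called once the exon length trend was removed.

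In the libraries labelled Elp3, compared with the same yellow libraries, no member passed either. The log2 fold changes were -0.65 for dl (95% confidence interval -1.97 to 0.66), -0.52 for Tl (-1.97 to 0.94), -0.42 for key, -0.39 for cact, -0.27 for Dif and 0.29 for imd (-0.39 to 0.96). Those of Rel, PGRP-LC, Myd88 and PGRP-LE lay between -0.21 and -0.02. Of the 10, 9 were fitted lower, with a median of -0.24 beside -0.02 over all features. EdgeR called 0 of the 10 and 1 of 9915 features (0.0101%), and 0 of the 10 had an unadjusted p under 0.05 beside 383 features. DESeq2 and limma-voom called 0 of the 10 as well. No member's libraries lay wholly above or wholly below those of yellow, beside 4.44% and 3.91% of features. Without the replicates 3, the values were close to those of dGcn5, with -1.48 for Tl, -1.28 for dl, -0.97 for Dif, -0.66 for cact and 0.58 for imd. There edgeR called 0 of the 10 and 0 of 9909 features (0%), with 3 of the 10, namely Tl, dl and Dif, at an unadjusted p under 0.05 beside 1341 features. Whether the fold changes differ between dGcn5 and this group was not tested.

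In the libraries labelled nej the differences were again within the spread between replicates. The log2 fold change was -0.61 for PGRP-LC (95% confidence interval -1.75 to 0.53), -0.53 for dl (-1.78 to 0.71), -0.49 for key (-1.58 to 0.60), -0.37 for Tl, -0.24 for cact and -0.21 for Rel. Dif had the largest positive value, 0.34 (-0.66 to 1.34). Of the 10, 8 were fitted lower, with a median of -0.22 beside 0.01 over all features. EdgeR called 0 of the 10 and 0 of 9816 features (0%), with 0 of the 10 and 358 features at an unadjusted p under 0.05, and DESeq2 and limma-voom called 0 of the 10. No member's libraries lay wholly above those of yellow (4.47% of features) or wholly below (5.27%). Same-numbered libraries deviated together in this comparison, and with the replicate number as a block edgeR called 2 features. Without the replicates 3, dl measured -1.16, Tl -0.69 and cact -0.57, each with an unadjusted p under 0.05, and edgeR called 0 of the 10 and 0 of 9794 features (0%), with 860 features at an unadjusted p under 0.05. With the block dl measured -0.73 (adjusted p = 0.382 in edgeR) and key -0.47 (adjusted p = 0.40 in edgeR), and 0 of the 10 were called. These 3 comparisons share the yellow libraries, so their values are not independent of each other.

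**Figure D3:**
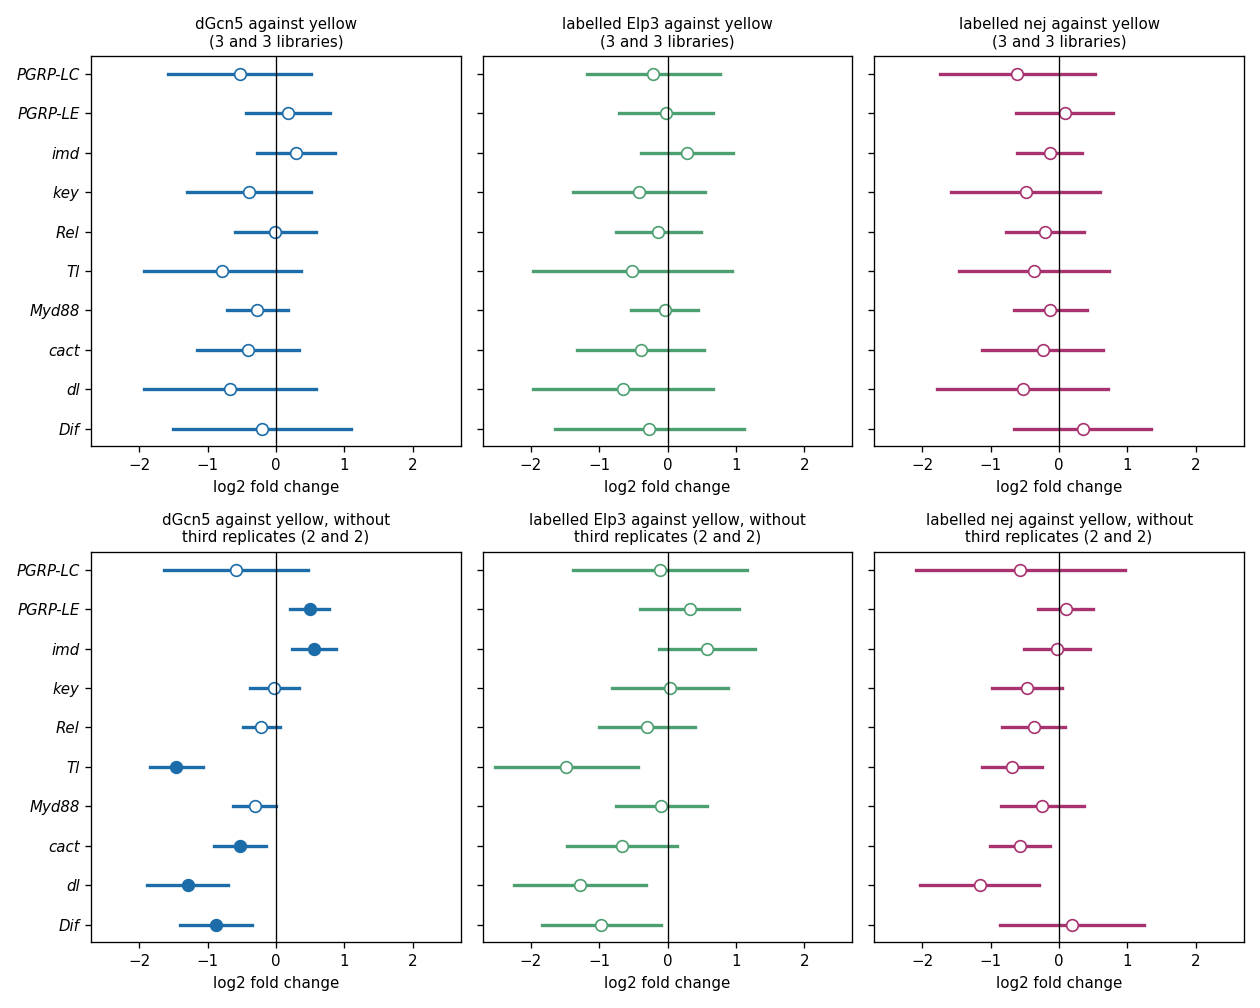
Fitted log2 fold change of each gene against yellow (points) with its 95% confidence interval (lines), for the 3 comparisons with all replicates (top row) and with replicates 1 and 2 alone (bottom row). Filled points have an adjusted p under 0.05. They are seen only for dGcn5 in the bottom row, where Tl, dl, Dif and cact lie below 0 and imd and PGRP-LE above, and the points of Tl and dl in the group labelled Elp3 lie at nearly the same place, at -1.48 and -1.28, with wider intervals.

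A test for any difference among the 4 groups over all 12 libraries gave the same picture. EdgeR called 0 of the 10 and 1 of 10368 features (0.00965%), with 0 of the 10 and 373 features at an unadjusted p under 0.05. The lowest unadjusted p was 0.292, for imd. DESeq2 called 0 of the 10. With limma-voom and sample quality weights, 3 of the 10 were called, beside 3844 of 10368 features (37.1%).

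Since replicate 3 stood out for several genes in all groups, replicate 3 was compared with the mean of replicates 1 and 2 in a fit with the replicate number beside the group, a comparison added after the values were seen. The labels do not say what a replicate number marks. Transcripts of Dorsal, Dif, their inhibitor Cactus and the kinase subunit gene key were higher in replicate 3. The log2 difference was 1.503 for dl (95% confidence interval 1.002 to 2.003, adjusted p = 0.00422 in edgeR), 1.39 for Dif (0.76 to 2.01, adjusted p = 0.0153), 0.89 for cact (0.56 to 1.23, adjusted p = 0.00699) and 0.77 for key (0.32 to 1.23, adjusted p = 0.0465). It was 0.47 for Rel (0.16 to 0.78, adjusted p = 0.0734 in edgeR). The values of imd, PGRP-LE, Myd88, Tl and PGRP-LC lay between -0.29 and 0.29, and their adjusted p values in edgeR were 0.429 or higher. Of the 10, 4 were thus called, beside 878 of 10368 features (8.47%). A joint test of the replicate number, which also takes in differences between replicates 1 and 2, called dl (adjusted p = 0.0124 in edgeR), cact (adjusted p = 0.0183) and Dif (adjusted p = 0.0452), or 3 of the 10 beside 562 features (5.42%). As both tests were prompted by these values, the counts are a description and no independent support.

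The differences of dl, Dif and cact were seen in each group. For dl, replicate 3 exceeded the mean of replicates 1 and 2 by a ratio of 1.504 in yellow, 3.51 in dGcn5, 3.34 in the Elp3-labelled and 3.33 in the nej-labelled libraries. For Dif the ratios were 1.57, 3.81, 3.72 and 1.90, and for cact 1.40, 1.77, 2.04 and 2.22. In yellow each of the 3 ratios was the lowest of the 4 groups, but this did not hold with the exon length trend removed. The log2 difference of yellow was then 1.39 for dl beside 1.36 in the Elp3-labelled libraries, 1.37 for Dif beside 1.34 in the nej-labelled libraries and 0.80 for cact beside 0.70 in dGcn5. Rel, Dif, dl and cact had replicate 3 as the highest library in each of the 4 groups, which held for 8.94% of all features. With the exon length trend removed, Rel was called too, at 0.51 (adjusted p = 0.0085 in edgeR), which made 5 of the 10 beside 1766 features (17%). DESeq2 called the same 5 genes beside 1580 features, or 12.7% of those it gave an adjusted p.

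Leaving out each library in turn showed how far these calls rested on single libraries. In the comparison of replicate 3 with the others, dl and cact were called in 12 of 12 such fits, with log2 differences of 1.39 to 1.79 and 0.83 to 1.05. Dif lost its call without replicate 3 of dGcn5 (1.19, adjusted p = 0.0847 in edgeR) and of the group labelled Elp3 (1.198, adjusted p = 0.071). The call of key was kept in only 3 of the 12, and lost without the low-count filter (adjusted p = 0.0584 in edgeR). The joint test was less stable, as it called 0 of the 10 without replicate 3 of dGcn5, of the group labelled Elp3 or of the group labelled nej, and dl alone without replicate 2 of yellow, dGcn5 or the group labelled Elp3. The summed hemocyte markers were 524.1 to 704.0 RPKM in replicates 3 and 229.5 to 931.4 RPKM in the others. Of the 10 markers 0 were called in edgeR's comparison of replicate 3 with the others, beside 8.47% of features. An unadjusted p under 0.05 was seen for 5 of the 10, beside 2357 of 10368 features. The joint test called He, beside 5.42% of features. With the exon length trend removed, edgeR called 3 of the 10 markers higher in replicate 3, namely eater, Pxn and NimC1, beside 17% of features. In that fit 7 of the 10 had an unadjusted p under 0.05, beside 3324 of 10368 features. Markers of other cell types summed to 3.71 to 7.06 and 3.56 to 16.5 RPKM, with 0 of 8 called and 1 at an unadjusted p under 0.05. Their part in the difference of the members was not tested.

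Other genes of the pathways were counted in the same fits, from lists grouped by role. In the comparisons with yellow 0 genes of any list were called by edgeR with all replicates. The antimicrobial peptides, the secreted products of both pathways, spanned a wide range of levels. Their 2 highest members, DptB and AttD, averaged 23.7 and 12.4 RPKM, and Def and BomS1 were at 0 counts in 10 libraries each. Of 17 listed peptide genes, 11 were tested against yellow in dGcn5, 12 in the Elp3-labelled and 11 in the nej-labelled libraries. All of those tested were fitted lower, with medians of -1.20, -1.71 and -2.33 on the log2 scale. An unadjusted p under 0.05 was seen for 0, 6 and 6 of them. Over all features it was seen for 360 of 9820, 383 of 9915 and 358 of 9816.

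In replicate 3, several antimicrobial peptide genes were called beside dl, Dif, cact and key. Of the 12 peptide genes tested, 10 were called higher in replicate 3 than in the others, with 0 lower, beside 8.47% of all features called. They were DptA, DptB, AttA, AttB, AttC, AttD, CecA1, CecA2, CecC and Dro. DptA measured 0 to 0.459 CPM in replicates 1 and 2 and 0.568 to 1.73 CPM in replicates 3. It passed the filter on low counts only through replicates 3, so its call is no support. The log2 difference was 2.45 for DptB (95% confidence interval 1.75 to 3.16, adjusted p = 0.00227 in edgeR) and 2.26 for AttA (1.5995 to 2.91, adjusted p = 0.00237). The joint test called 7 of the 12, with CecB in place of DptA, AttD, CecA1 and CecC, beside 5.42% of all features. The summed level of the peptides was 350.4 RPKM in yellow replicate 3 and 132.3 and 95.99 in yellow replicates 1 and 2, and 96.22 RPKM in replicate 3 of the group labelled nej beside 18.79 and 13.42 in replicates 1 and 2. Reads of similar genes, such as AttA and AttB, may be shared between them.

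Some of the other Imd genes were called as well. For pirk, which encodes a negative regulator of the Imd receptors, replicate 3 measured 67.9 to 106 CPM and the other libraries 2.999 to 53.7 CPM, with a log2 difference of 2.83 (2.19 to 3.47, adjusted p = 0.000953 in edgeR). PGRP-LF, which encodes a receptor that blocks PGRP-LC, measured 22.6 to 37.2 and 5.47 to 13.4 CPM, with a log2 difference of 1.54 (adjusted p = 0.0033 in edgeR). By comparison, casp, dnr1, scny, trbd and CYLD, which also encode negative regulators, lay between -0.16 and 0.43 and were not called. Of the 7 recognition genes tested, PGRP-SB1 and PGRP-SC2 were also higher, at 4.22 and 1.70, beside 8.47% of all features called. Both were near the floor. PGRP-SB1 measured 0 to 0.268 CPM in replicates 1 and 2 and 0.662 to 2.27 CPM in replicates 3. It passed the filter on low counts only through replicates 3, so its call there is no support. PGRP-SC2 measured 0.048 to 1.60 and 0.855 to 3.13 CPM. PGRP-LB, an amidase gene at 3.68 RPKM the highest after PGRP-LF, measured 0.19 and was not called. Of 18 intracellular Imd genes, only Diap2, a ubiquitin ligase, was lower, at -0.73 (adjusted p = 0.0155 in edgeR), and pirk was the only one higher. With the exon length trend removed, where 17% of features were called, sick was called higher as well. The ubiquitin-conjugating enzymes eff and Uev1A, the highest of this list at 309 and 143 RPKM, measured 0.20 and -0.09.

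Of the Toll lists, only spz, which encodes the Toll ligand Spätzle, was called. Its log2 difference was 1.48 (95% confidence interval 0.76 to 2.19, adjusted p = 0.0206 in edgeR, and 0.060 in the joint test), and replicate 3 exceeded the mean of the others by ratios of 1.38 to 5.16. The upstream genes grass and PGRP-SA, at 71.4 and 56.3 RPKM, measured -0.03 and -0.12. The intracellular genes tub and Pli, at 50.03 and 44.2 RPKM, measured -0.21 and 0.21. Of the other Toll receptors, Tollo, at 4.05 RPKM, measured 0.18 and Toll-9, at 0.655 RPKM, 0.81. Thus edgeR called 1 of 7 upstream genes, 0 of 4 receptors and 0 of 7 intracellular genes, beside 8.47% of all features. An unadjusted p under 0.05 was seen for 1, 1 and 0 of them, beside 2357 of 10368 features.

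**Figure D4:**
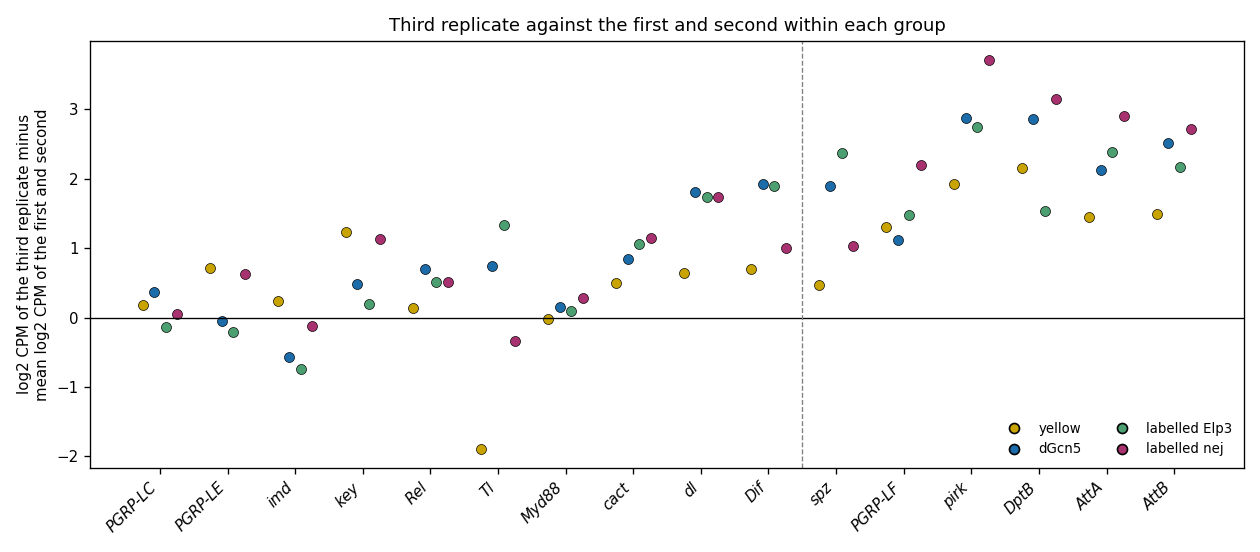
Log2 CPM of replicate 3 minus the mean log2 CPM of replicates 1 and 2, for each gene and, to the right of the dashed line, 6 other pathway genes. Each point is a dsRNA group. The points of dl, Dif, cact, spz, PGRP-LF, pirk, DptB, AttA and AttB are above 0 in all 4 groups, and those of Tl lie on both sides.

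In dGcn5 against yellow without the replicates 3, where 43.4% of features were called, list genes moved in both directions. Of the Toll genes, Toll-7 and Tollo among the receptors, the ligand gene spz and the intracellular genes Gprk2, Pli and Deaf1 were lower, with log2 fold changes of -2.81, -1.02, -1.71, -0.86, -0.80 and -0.57. PGRP-SD (2.43), grass (1.21), PGRP-SA (0.92) and krz (0.57) were higher. Of the Imd genes, pirk (-1.54), PGRP-LB (-1.19), scny (-0.71) and Tak1 (-0.50) were lower, whereas Dredd (0.70), Diap2 (0.69) and Uev1A (0.38) were higher. Thus genes of the same pathway were called in opposite directions in these lists. Of the members themselves, the Toll genes called (Tl, dl, Dif and cact) were lower, and the Imd genes called (imd and PGRP-LE) were higher. The former have 3324 to 6432 bp of exon, and the latter 1518 and 2073 bp. With the exon length trend removed, only Tl, imd and PGRP-LE kept their calls. The adjusted p in edgeR was then 0.0615 for dl, 0.203 for Dif and 0.14 for cact. Of 11 peptide genes, 7 were lower and 0 higher, namely AttA, AttB, AttC, AttD, CecA2, DptB and Dro, with -2.17 for AttB and -1.97 for DptB. After removal of the exon length trend, where 29.3% of features were called, Deaf1 lost its call, and of the intracellular Imd genes only Dredd and Diap2 kept theirs, since pirk (-1.61, adjusted p = 0.0665 in edgeR), scny, Tak1 and Uev1A did not pass. The peptides called lower were then 9, with CecA1 and CecC added.

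The variation of the genes among themselves was examined over replicates 1 and 2, since replicates 3 lay together for dl and cact. Over these 8 libraries, 2 from each group, Tl varied against imd and PGRP-LE. The correlation of log2 CPM was -0.918 for Tl and imd (Spearman's rho -0.833, exact permutation p = 0.000967 and 0.0154, two-sided) and -0.899 for Tl and PGRP-LE (rho -0.81, exact permutation p = 0.00238 and 0.0218). It was 0.91 for imd and PGRP-LE (rho 0.69, exact permutation p = 0.00228 and 0.0694) and 0.838 for dl and Tl (rho 0.929, exact permutation p = 0.00258 and 0.00223). Of 45 pairs, these 4 had an adjusted p of 0.029 for Pearson's r in the exact permutation test, and 0 pairs had an adjusted p under 0.05 for rho.

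Leaving out the 2 libraries farthest from the median of the gene named first gave -0.902, -0.92, 0.70 and 0.818 in the same order. With the exon length trend removed the 4 correlations were -0.821, -0.766, 0.87 and 0.632, and 0 of 45 pairs had an adjusted p under 0.05 in the exact permutation test. Tl has 5198 bp of exon against 1518 bp in imd and 2073 bp in PGRP-LE. Leaving out each of the 8 libraries in turn, the adjusted p stayed under 0.05 in 2 of 8 fits for each of the first 3 pairs and in 1 of 8 for dl and Tl. The comparison was added after the values were seen. The permutation treated the 8 libraries as exchangeable, although they come from 4 groups and libraries of a group can be alike. The p-values may thus be too small. The yellow and dGcn5 libraries among them also gave the calls of Tl, dl, imd and PGRP-LE without the replicates 3. The correlations are therefore a description and no independent support. For dl and cact the correlation was 0.75 (rho 0.452, adjusted p = 0.167 and 0.523, exact permutation tests), and -0.235 without the 2 libraries farthest from the median of dl, so that their relation over these libraries rested on yellow replicates 1 and 2.

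**Figure D5:**
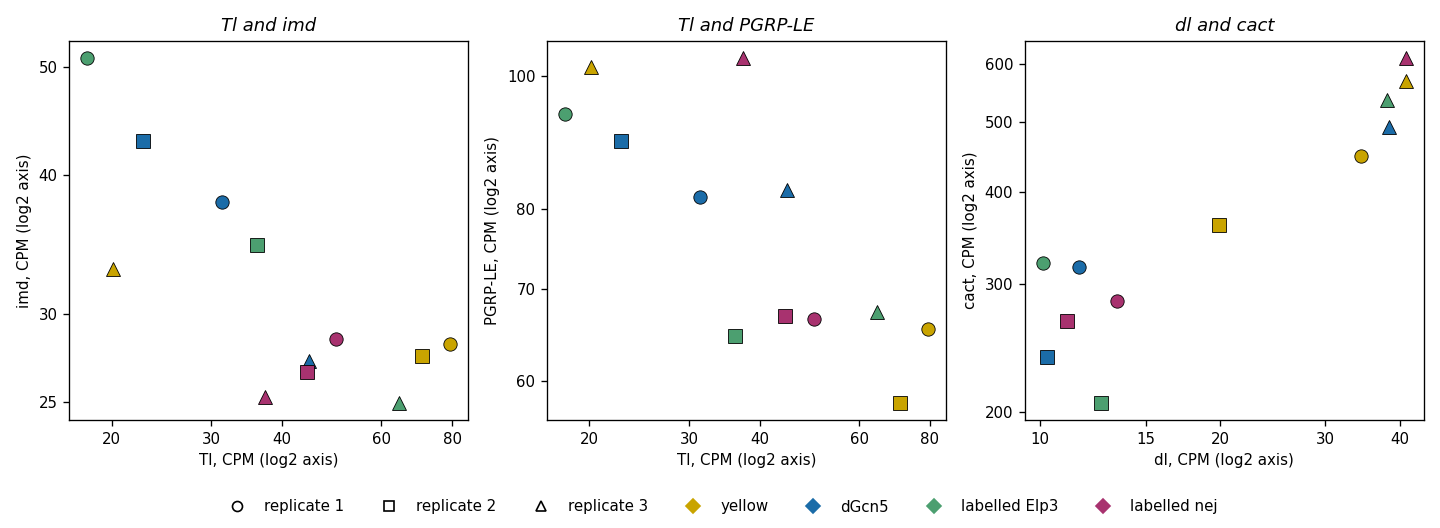
CPM of pairs of genes in each library on log2 axes. Circles, squares and triangles are replicates 1, 2 and 3, and colours are dsRNA groups. Over circles and squares imd and PGRP-LE are high where Tl is low, and the triangles of dl and cact lie together at the upper right, between 37.99 and 40.9 CPM of dl.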

How the data were processed

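RNA-seq counts of 12 Kc 167 libraries, 3 for each of 4 dsRNA groups, were analysed. According to the study's methods, the authors prepared stranded polyA libraries, trimmed reads, filtered out those of rRNA, aligned to BDGP6.32 with STAR and counted on exons with featureCounts. The deposited values are raw whole-number counts, with no normalization or filter. Adapters carried molecular identifiers, but the strand setting of the counting and any collapsing of reads by identifier are not given in the sources used here, so intervals from counts alone would cover counting error only. Samples were grouped by GEO's labels, and coordinates and exon lengths are those of the table.

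Members were matched by symbol. They and the 8 gene lists were chosen with earlier results of these data known. Lists name their 2 highest genes by mean RPKM and every gene edgeR called in the comparisons described, and WntD and ird5 (listed as IKKbeta) were not matched by symbol.

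The main test was edgeR 4.0.16 (quasi-likelihood, TMM, filterByExpr with a minimum of 10 counts) in R 4.3.3, on the 6 libraries of each comparison or on 12, with Benjamini-Hochberg adjustment over all features tested and a threshold of 0.05. Confidence intervals are at 95%. CPM and RPKM were computed from the counts, with a prior count of 2 on the log2 scale. The exon length trend is the linear trend of each library's log2 deviation on log2 exon length, and was removed by an offset. Replicate 3 was tested against the mean of replicates 1 and 2 in a fit with group and replicate number, and the replicate number as a whole in a joint test. Alternatives were DESeq2 1.42.0, its size factors, no filter, at least 10 counts in every library, all 12 libraries in one fit, a replicate block, limma-voom 3.58.1 with sample quality weights, removal of the length trend, leaving out the replicates 3 and leaving out each library. Scripts were tested on simulated data.

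Same-numbered libraries correlated in their deviations from group means by -0.124, 0.199 and -0.0121 in dGcn5 against yellow, by -0.639, 0.722 and -0.101 for the group labelled Elp3, and by 0.143, 0.474 and 0.628 for the group labelled nej. Only in the last was every value over 0.1, and only there were the numbers taken to pair libraries with yellow. The main test had no block there either, and the block was an alternative. The comparison of replicate 3 with the others and the joint test matched libraries by number over all 4 groups. For dGcn5 and the group labelled Elp3, that matching did not meet the threshold of 0.1. Replicates of a group differed by a chi-square of 28.3 to 393.1 per degree of freedom, so no pair differed by counting error alone. The lowest values were those of replicates 1 and 2 of yellow (28.3) and of dGcn5 (36.1). These values do not tell separate cultures from the same culture. A protein comparison and a motif search were not run.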

Additional observations from a re-analysis of the deposited data

How the results depend on the processing

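No member was called against yellow with all replicates under DESeq2, its size factors, other filters, all 12 libraries in one fit, the replicate block, the length correction or with any single library left out. Other settings gave other counts. With limma-voom and sample quality weights, dGcn5 against yellow gave 4765 features (48.5%) and 6 members. Under the same setting the group labelled Elp3 gave 2 features and that labelled nej 1. The test over 4 groups gave 3844 features (37.1%) and 3 members with it. Without replicates 3, dGcn5 gave 4275 features and 6 members, and the group labelled Elp3 0 features. With the length trend removed too, these were 2884 features and 3 members for dGcn5, 161 features for the group labelled Elp3 and 2 features over 4 groups. The cause was not tested. DESeq2 called 50, 24, 40 and 86 features in the 3 comparisons and over 4 groups, 1274 in the joint test of the replicate number and 1580 in the comparison of replicate 3 with the others. With the replicate block, alone or with the length correction, the group labelled Elp3 gave 0 features. The block gave 2 for the group labelled nej, and 2 over 4 groups with the length correction. It changed no other call. The fit to all 12 libraries together gave 1 feature for the group labelled nej, as did the length correction, which gave 2 over 4 groups, where no filter gave 3. For replicate 3 against the others, the length correction gave 1766 features. In the joint test it gave 1147 features (11.1%) and 5 members. At least 10 counts in every library gave 391 features (4.68%) and 2 members in the joint test, without Dif.

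Directions of genes that were not called changed as follows. For dGcn5, Rel turned to 0.010 with the length correction, 0.011 with the block as well and 0.014 without replicates 3 and the length trend. For the group labelled Elp3, PGRP-LE turned to 0.032 without the filter, 0.0072 in the fit to 12 libraries, 0.013 with the replicate block, 0.013 with the block and the length correction, 0.125 with limma-voom, 0.321 without replicates 3 and 0.305 without these and the length trend. There, key turned to 0.033 without replicates 3, and PGRP-LC to 0.084 and Myd88 to 0.110 without these and the length trend. For the group labelled nej, imd turned to 0.0053 with the latter.

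Leaving out single libraries, the ranges for dGcn5 were -1.53 to -0.316 for dl, -1.15 to -0.487 for Tl, -0.72 to -0.151 for cact, 0.021 to 0.498 for PGRP-LE, -0.268 to 0.175 for Rel, -1.14 to 0.166 for Dif and -0.662 to 0.177 for key. For the group labelled Elp3 they were 0 to 1 features called, -1.51 to -0.314 for dl, -1.08 to -0.155 for Tl, -0.856 to -0.068 for cact, -0.090 to 0.063 for Myd88, -0.691 to 0.111 for key, -0.177 to 0.266 for PGRP-LE, -0.353 to 0.0064 for Rel and -1.23 to 0.074 for Dif. For that labelled nej they were -1.37 to -0.225 for dl, -0.775 to -0.052 for Tl, -0.741 to -0.037 for cact, -0.169 to 0.356 for PGRP-LE, -0.979 to 0.031 for key, -0.224 to 0.023 for Myd88 and -0.046 to 0.649 for Dif. For replicate 3 against the others they were 328 to 1206 features, 2 to 4 members and -0.370 to 0.62 for Tl, and in the joint test 165 to 650 features and 0 to 3 members. PGRP-LC, with 13 to 35 counts per library, is the gene whose precision depth limits most.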

Other observations

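The genes whose levels over the 12 libraries were most like those of dl, cact and Dif were looked up among the 10368 features, chosen for this after their values were known. For dl the 5 nearest by Pearson's r of log2 CPM were ppk24 (r = 0.976), CG3999 (0.974), bbg (0.971), CG43291 (0.967) and Ntan1 (0.966). For cact they were CG16758 (0.977), CG13912 (0.974), Cyp6a8 (0.973), GstD8 (0.972) and Ance-2 (0.969), and for Dif PNUTS, CG32195, wfs1, sbr and CG10005 (0.967 to 0.979). With the exon length trend removed the same pairs gave 0.867 to 0.983, with bbg at 0.967 for dl and sbr at 0.970 for Dif. The libraries share the higher level of replicate 3, and no test was made.

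In the 6 yellow and dGcn5 libraries the order of the summed hemocyte markers was yellow 1, yellow 2, dGcn5 3, yellow 3, dGcn5 1 and dGcn5 2, and the order of Tl was the same except for yellow 3, which had the lowest Tl, at 20.1 CPM.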
